A study of Mus musculus with 6 samples.

Results

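GABA-A receptors are chloride channels opened by the inhibitory transmitter GABA, and 7 genes that encode their subunits, Gabra2, Gabra3, Gabra4, Gabra5, Gabrb1, Gabrb2 and Gabrd, were followed in the cortex of mice at postnatal day 7. They were taken by symbol from a deposited table of 24972 genes, and all 7 were among the 15800 genes tested. The study asked how loss of Zmiz1, a transcriptional coregulator, affects the developing cortex, and sequenced RNA from 3 libraries labelled wildtype and 3 labelled Zmiz1-KO. Wildtype mice were Zmiz1f/f and thus carried the floxed alleles without Cre, and Zmiz1-KO mice were Zmiz1f/f;Emx1Cre, with Cre driven from Emx1 in cortical progenitors. Cells from outside the Emx1 lineage, among them the cortical interneurons, keep the floxed gene in such mice. Neither the labels nor the study's methods say whether a library is 1 animal, so the p-values measure the spread between these libraries only.

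Each receptor is a ring of subunits, usually with alpha and beta subunits and either a gamma subunit or the delta subunit. GABA binds between alpha and beta subunits, benzodiazepines bind between alpha and gamma subunits, and the alpha subunit sets much of where the receptor sits and how it responds. In the young forebrain the receptors with the subunits encoded by Gabra2, Gabra3 and Gabra5 are prominent, before other alpha subunits take over much of synaptic inhibition. Receptors with the products of Gabra5, or of Gabra4 together with Gabrd, lie largely outside synapses and carry a tonic current.

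The coding sequences of the 4 alpha genes differ at a codon that sets the response to classical benzodiazepines, and the stretch around it is shown because it divides Gabra4 from the other alpha genes. The stretches are 36 bases of the annotated transcripts, 5′ to 3′, with that codon in capitals, and each lies within 1 coding exon.
Gabra2: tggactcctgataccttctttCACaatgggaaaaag
Gabra3: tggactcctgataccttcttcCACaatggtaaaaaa
Gabra4: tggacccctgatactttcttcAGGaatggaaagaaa
Gabra5: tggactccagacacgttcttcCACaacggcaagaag
The codon reads histidine in Gabra2, Gabra3 and Gabra5, whose receptors bind classical benzodiazepines, and arginine in Gabra4, whose receptors are insensitive to them. In the GRCm38 build, on the minus strand, the stretches lie at chr5:71014493-71014528 in exon 5 of Gabra2, at chrX:72501156-72501191 in exon 5 of Gabra3, at chr5:71641140-71641175 in exon 4 of Gabra4 and at chr7:57488879-57488914 in exon 5 of Gabra5.

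In the same build 3 of the genes lie together on chromosome 5, Gabra2 (chr5:70957597-71095849, minus strand), Gabra4 (chr5:71569749-71658308, minus strand) and Gabrb1 (chr5:71658113-72149037, plus strand). Gabra4 and Gabrb1 stand head to head, and their gene bodies share 196 bases. Gabra2 and Gabra4 are 473899 bases apart. The others are on separate chromosomes, Gabra3 at chrX:72432681-72656848 on the minus strand, Gabra5 at chr7:57407672-57510059 on the minus strand, Gabrb2 at chr11:42419757-42629028 on the plus strand and Gabrd at chr4:155384980-155398112 on the minus strand. The library kit does not mark strand, so reads from the 46 exon bases that Gabra4 and Gabrb1 share, and from the 148 that Gabra5 shares with the antisense gene Gm9962, cannot be assigned by strand. Gm9962 itself stood at 48.8 to 81.1 normalized counts, against 4774 to 5171 for Gabra5.

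The 250 bases upstream of the annotated starts were available for 6 of the 7 genes, in 10 windows (RefSeq, GRCm38.p6). Their GC content was highest for Gabra2, at 70.0%, and it was 39.2% and 42.4% in the windows of Gabra3, which overlap each other. The 3 windows of Gabrb2 differed, at 58.8%, 54.0% and 36.8%. The median of all 32851 windows was 52.4%. The letters TATAAA, sought on both strands, were present in both Gabra3 windows and in the Gabrb2 window of 58.8% GC, and in 12.4% of all windows.

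Values are normalized counts, that is, counts per gene after the authors' scaling, and not numbers of reads. Zmiz1 (chr14:25459185-25666743, plus strand) came first as the targeted gene. It stood at 8119, 7929 and 7461 in wildtype and at 9944, 9779 and 9660 in the Zmiz1-KO-labelled libraries. All values of the labelled Zmiz1-KO libraries were above all wildtype values, which goes against the label. The mean went from 7836 ± 339 to 9794 ± 143 (SD, n = 3 per group), and limma gave a log2 fold change of 0.32 (SE 0.04, adjusted p = 0.00125 by Benjamini-Hochberg over all tested genes). The table holds 1 value per gene over all exons, so reads of the deleted part cannot be seen apart. The study also measured Zmiz1 by qPCR and reports it lower in Zmiz1-KO samples than in controls, the direction of the label. That measurement was not analysed here. Of the exon bases of Zmiz1, 297 are shared with the antisense gene Zmiz1os1. The second group is therefore called by its label throughout.

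The columns summed to between 32661980 and 33239707, which follows from the scaling and is not depth. The spacing of the lowest values was estimated at 1.829 to 2.109 normalized counts per library and was taken as 1 read. On that basis a library held an estimated 15494860 to 17858420 reads. Xist, an RNA made in cells with an inactive X chromosome, stood at 25307 in wildtype replicate 3 and 24403 in labelled Zmiz1-KO replicate 2 and at 12.9 to 57.3 in the other 4 libraries, while the Y-linked Ddx3y stood at 0 and 1.89 in those 2 libraries and at 1250 to 1483 in the others. Each group thus held 1 library of the female and 2 of the male pattern. The labels speak in one place of isolating progenitors and in another of RNA from whole cortex. The labelled tissue was checked with markers of cortical excitatory neurons, all 6 of which were present, with a mean of 19640 normalized counts of Slc17a7, the vesicular glutamate transporter, in wildtype and 19623 in the Zmiz1-KO-labelled libraries.

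Levels of different genes were compared per kilobase of exon, since the genes differ in length. Gabra5 had the highest level, with a median over the 6 libraries of 1671 normalized counts per kilobase (lowest 1605, highest 1739). Gabra3 (1033, 1026 to 1072) and Gabrb2 (915.1, 820.6 to 1029) followed, and these neighbours overlapped in range. Gabra2 stood at 356.1 (328.2 to 386.7), Gabra4 at 268.7 (258.5 to 296.3) and Gabrd at 193.2 (159.2 to 228.9). Gabrb1 was far below the others at 19.56 (16.5 to 22.73), which is 85.4 times below Gabra5 by the medians. This distance depends on its 13838 exon bases, against 2875 for Gabrd. In normalized counts the wildtype means were 279 for Gabrb1 and 513 for Gabrd. The longest transcript of Gabrb1 has 13737 bases, so taking that length instead hardly changes its level. Apart from Gabra3 and Gabrb2, no neighbours in this order overlapped in range. With the longest transcript as the length, Gabrb2 (1459) came before Gabra3 (1107), and Gabra2 (464.9) and Gabra4 (397.8) overlapped. The plot of levels shows the order and the width of each range.

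**Figure D1:**
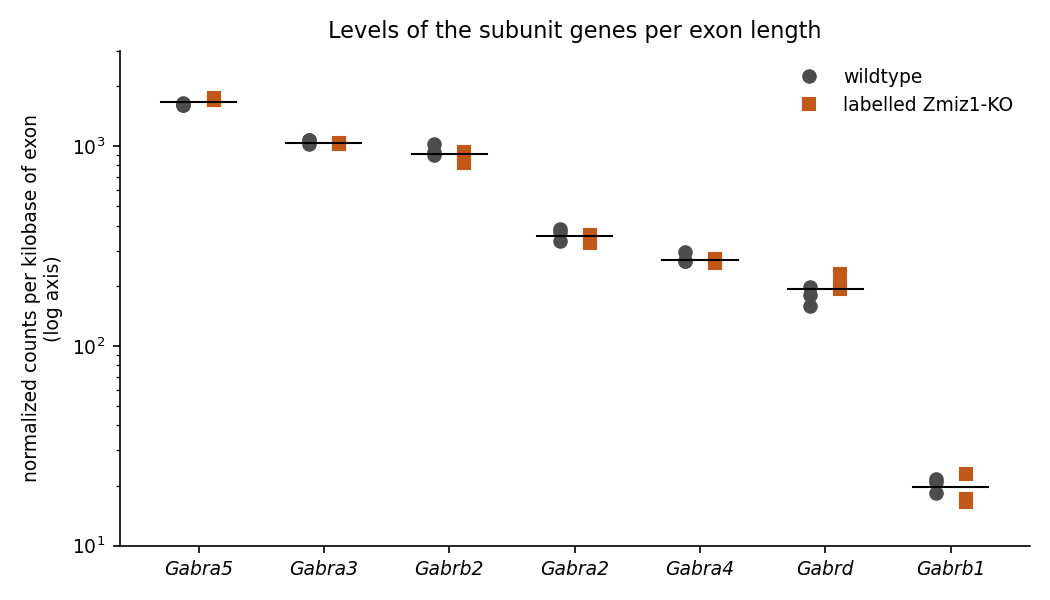
Normalized counts per kilobase of exon (log axis) of the 7 subunit genes, with 1 point per library, wildtype as grey circles and labelled Zmiz1-KO as orange squares, and a line at the median of the 6 libraries. Gabra5 lies highest at a median of 1671, Gabrb1 lies lowest at 19.56, and Gabra3 and Gabrb2 overlap.

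The 2 alpha genes of chromosome 5 thus differed by a ratio of 1.33 in median level, while Gabrb1, which starts beside Gabra4, had a level per kilobase 13.7 times lower than that of Gabra4. Beta subunits are needed for assembly and for the route to the cell surface, and of the 2 beta genes followed here Gabrb2 was by far the more abundant.

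None of the 7 genes passed the threshold between the groups (adjusted p at or under 0.05 in limma), where 65 of 15800 tested genes did, or 0.411%. At an unadjusted p under 0.05 there were 2 of 7, Gabrb2 and Gabrd, against 11.0% of all tested genes, and limma-voom called 0 and had 2 at that level, Gabra5 and Gabrd. The groups did not overlap for 1 of 7, Gabra5, against 16.3% of all tested genes, so that 1 gene in 7 is near the background. The fold change was negative for 5 of 7 genes, against 50.1% of all tested genes, and the median over the members was -0.05 on the log2 scale, against -0.000175 over all tested genes. Exact permutation tests of single members gave p of 0.1 for Gabra5 and 0.2 to 0.7 for the others. The plot of values by library shows every value behind these counts.

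**Figure D2:**
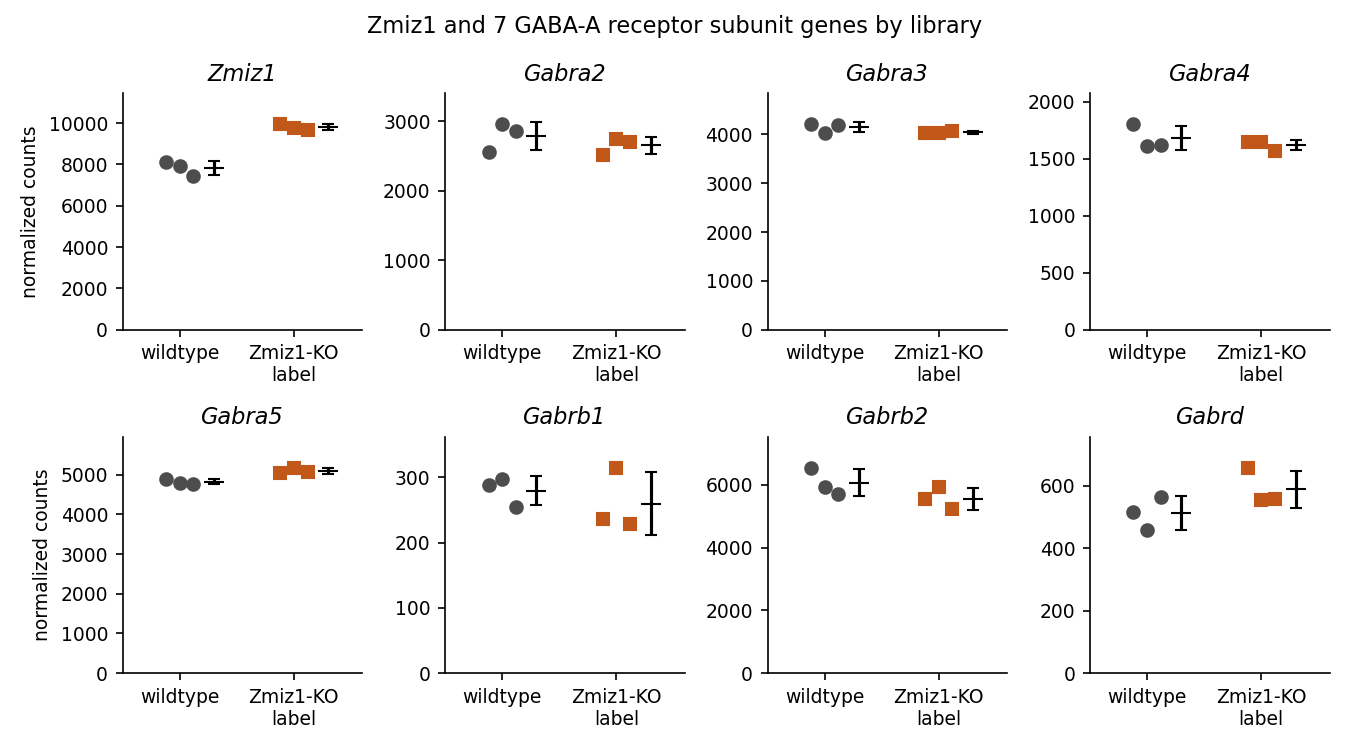
Normalized counts in each library for Zmiz1 and the 7 subunit genes, each on its own axis from 0, with wildtype as grey circles, labelled Zmiz1-KO as orange squares and mean ± SD beside each group of 3. Zmiz1 and Gabra5 are higher in all 3 Zmiz1-KO-labelled libraries, and the groups of the other 6 genes overlap.

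Gabra5, whose receptors are mostly extrasynaptic and are abundant in the hippocampus and in deep cortical layers, was at 4900, 4789 and 4774 in wildtype and at 5041, 5171 and 5065 in the Zmiz1-KO-labelled libraries. The lowest labelled Zmiz1-KO value was 140.1 above the highest wildtype value. The means were 4821 ± 69.0 and 5092 ± 69.5 (SD, n = 3 per group). The log2 fold change was 0.08 (SE 0.04, 95% interval -0.004 to 0.16, adjusted p = 0.485, limma), a difference of 5.62% with an interval of -0.265% to 11.8%. An exact permutation test (two-sided) gave p = 0.1, the smallest that 3 against 3 libraries can give. The difference did not pass the threshold.

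Gabra3, X-linked and an early alpha subunit that declines in the cortex with maturation, stood at 4207, 4034 and 4203 in wildtype and at 4028, 4030 and 4071 in the Zmiz1-KO-labelled libraries. Its coefficient of variation was 2.38% in wildtype and 0.599% in the other group, the latter the smallest of the members, and the groups overlapped through wildtype replicate 2. The log2 fold change was -0.04 (SE 0.04, adjusted p = 0.81, limma), with an interval in percent of -8.17% to 3.48%. In the 2 libraries of the female pattern the values were 4203 and 4030, within the range of the other 4.

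Gabra2, the alpha subunit of many synapses on the axon initial segment, was at 2561, 2954 and 2851 in wildtype and at 2508, 2749 and 2693 in the Zmiz1-KO-labelled libraries. Replicate 1 was the lowest of each group, and the ranges overlapped. The log2 fold change was -0.07 (SE 0.06, adjusted p = 0.693, limma), with an interval of -12.4% to 3.3%. Gabra4, which forms benzodiazepine-insensitive receptors and is known mainly from thalamus, striatum and dentate gyrus, was at 1802, 1614 and 1624 in wildtype and at 1644, 1650 and 1572 in the Zmiz1-KO-labelled libraries. Wildtype replicate 1 was the highest of all 6, and without it the log2 fold change went from -0.05 (SE 0.06, adjusted p = 0.817, limma) to 0.002.

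Gabrd encodes the delta subunit, which replaces the gamma subunit in extrasynaptic receptors. It was at 515, 458 and 566 in wildtype and at 658, 554 and 557 in the Zmiz1-KO-labelled libraries. Labelled Zmiz1-KO replicate 1 was the highest, and the other libraries of both groups overlapped. The means were 513 ± 53.9 and 590 ± 59.1 (SD, n = 3 per group), and limma gave a log2 fold change of 0.20 (SE 0.10, 95% interval 0.0005 to 0.40, unadjusted p = 0.0495, adjusted p = 0.454). With about 217 to 331 reads a library, counting error alone is 6.02%, beside a coefficient of variation of 10.5% and 10.0% in the groups. The gene that pairs with it in receptors, Gabra4, did not go the same way in sign, and the log2 ratio of the normalized counts of Gabrd to those of Gabra4 was 0.25 higher in the Zmiz1-KO-labelled libraries, with overlapping groups (exact permutation p = 0.2, or 0.267 adjusted over the 4 such ratios computed).

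Gabrb2, a beta subunit that becomes the prevailing one in the mature forebrain, was at 6543, 5941 and 5713 in wildtype and at 5535, 5927 and 5219 in the Zmiz1-KO-labelled libraries. The value of labelled Zmiz1-KO replicate 2 lay within the wildtype range and the other 2 lay below it. The means were 6066 ± 429 and 5560 ± 355 (SD, n = 3 per group), and limma gave a log2 fold change of -0.13 (SE 0.06, 95% interval -0.25 to -0.004, unadjusted p = 0.0445, adjusted p = 0.437). Gabrb1 was at 287, 297 and 254 in wildtype and at 236, 314 and 228 in the Zmiz1-KO-labelled libraries, so the highest and the lowest value both came from the second group. Its log2 fold change was -0.12 (SE 0.13, adjusted p = 0.811, limma), and its interval of -23.8% to 11.6% was the widest among the members. With about 113 to 172 reads a library its counting error was 8.6%, beside a coefficient of variation of 8.08% in wildtype and 18.3% in the other group.

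**Figure D3:**
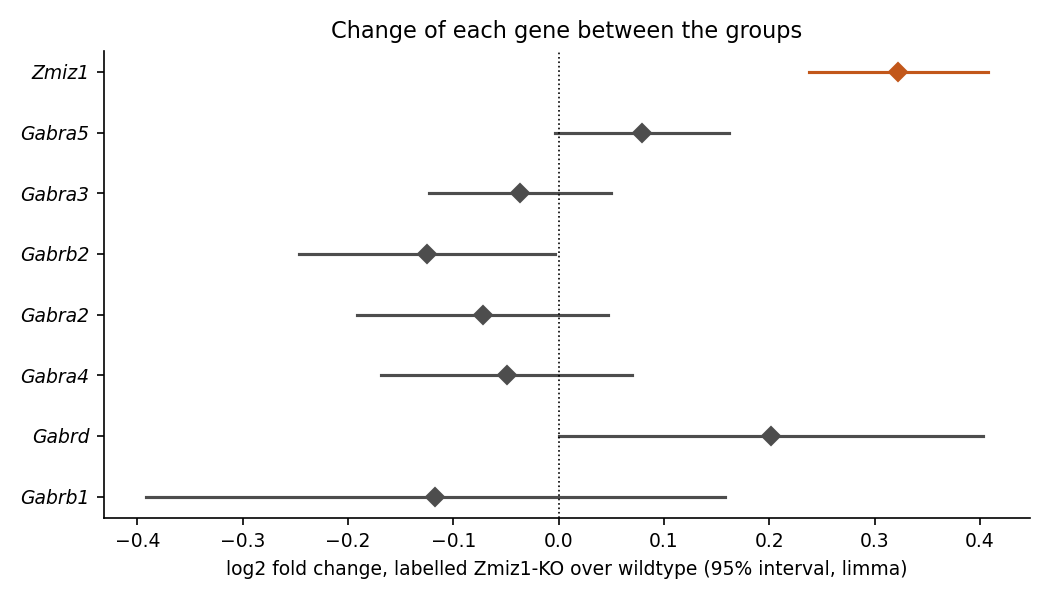
Log2 fold change of the Zmiz1-KO-labelled libraries over wildtype, with the 95% interval of limma not adjusted for the number of genes, for Zmiz1 and the 7 subunit genes in order of level per kilobase. Zmiz1 lies at 0.32 away from 0, the intervals of 5 subunit genes include 0, and those of Gabrb2 and Gabrd end close to it.

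The precision for the members was compared with that of genes of like level. Among 5741 tested genes with a mean of 1000 to 7000 normalized counts, a range that holds 5 members, the median SE of the log2 fold change was 0.05, and 34 were called. The smallest absolute log2 fold change among those called was 0.196. Gabra2, Gabra3, Gabra4, Gabra5 and Gabrb2 had SEs of 0.04 to 0.06.

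The make-up of the alpha genes was compared as shares of the summed level per kilobase of Gabra2, Gabra3, Gabra4 and Gabra5, which leaves out the alpha genes not followed here. Gabra5 held 49.2%, 48.9% and 48.4% of that sum in wildtype and 51.1%, 51.2% and 50.8% in the Zmiz1-KO-labelled libraries. Gabra3 held 31.2% to 32.3% in wildtype and 30.2% to 30.9% in the other group, so its share was lower without overlap where that of Gabra5 was higher, the shares of a library adding to a fixed sum. Gabra2 held 9.89% to 11.8% and Gabra4 7.71% to 8.84% over the 6 libraries. The sum itself was 3290 to 3397 normalized counts per kilobase, with means of 3319 in wildtype and 3356 in the other group. Ratios between members were then taken within each library on normalized counts, for 4 pairs chosen with the values of the members known. The log2 ratio of Gabra5 to Gabra3 was 0.22, 0.25 and 0.18 in wildtype and 0.32, 0.36 and 0.32 in the Zmiz1-KO-labelled libraries, without overlap and with a difference of 0.12. The log2 ratio of Gabra5 to Gabrb2 differed by 0.20, also without overlap. Both exact permutation tests gave p = 0.1, the smallest possible (0.2 adjusted over the 4 pairs), and both pairs hold Gabra5, so they are not independent. The adjustment does not cover the choice of the pairs. The log2 ratio of Gabrb2 to Gabrb1 differed by -0.01 (exact permutation p = 1.0, also 1.0 adjusted).

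**Figure D4:**
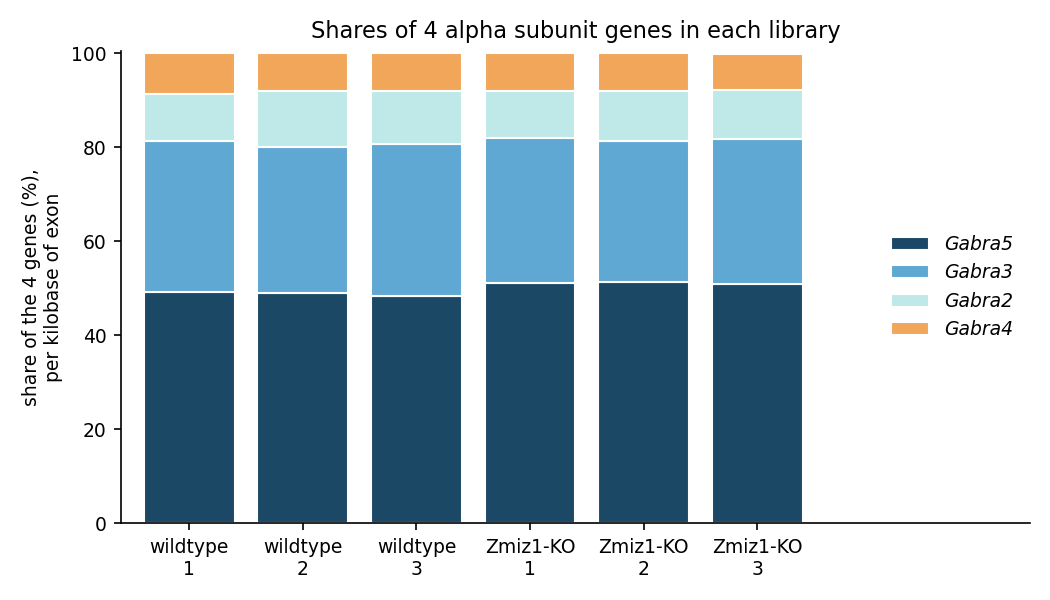
Share (%) of each of 4 alpha subunit genes in their summed level per kilobase of exon, with 1 stacked bar per library. Gabra5 takes 48.4% to 49.2% in wildtype and 50.8% to 51.2% in the Zmiz1-KO-labelled libraries, and Gabra4 has the smallest share in every library.

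Members did not move as 1 block across the 6 libraries. Over these points, which share the scaling and the groups, Pearson's r of log2 values was highest for Gabra4 with Gabrb2 (0.877) and for Gabrb1 with Gabrb2 (0.762). It was lowest for Gabra2 with Gabrd (-0.661) and Gabrb1 with Gabrd (-0.622). Outside the members, the genes most like each in pattern over the 6 libraries were Tmem74b, Kif15 and Synj2bp for Gabra2, Slain1, Naa25 and Dynll1 for Gabra3, Tbx1, Pum3 and E2f7 for Gabra4, Fcgrt, Skil and Dmrta1 for Gabra5, Pla2g4e, Hspa4l and Sema6d for Gabrb1, Pias1, Cpox and Gpr34 for Gabrb2, and Panct2, Fam163b and Asic1 for Gabrd. The first of each had an r of 0.991 to 0.998. Between 31 and 93 genes reached an r over 0.95 with each member, so over 6 libraries such a likeness is common.

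Of the other 12 subunit genes of the family, 8 were tested and none was called (adjusted p of at least 0.411, limma), 6 had a positive and 2 a negative fold change, and 1 had an unadjusted p under 0.05. Their median log2 fold change was 0.03, and their groups overlapped in every case.

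Genes that anchor, assemble or move the receptor were listed apart, 22 in all. None of the 22 was called, 2 had an unadjusted p under 0.05, and for 6 the groups did not overlap, 5 higher and 1 lower in the Zmiz1-KO-labelled libraries, where 11.0% and 16.3% of all tested genes met these marks. The median log2 fold change was 0.03. The gene nearest the threshold was Trak2, an adaptor between mitochondria or other cargo and kinesin motors that also binds GABA-A receptor beta subunits, with 6338 ± 284 in wildtype and 5491 ± 213 in the Zmiz1-KO-labelled libraries (SD, n = 3 per group) and a log2 difference of -0.21 (SE 0.04, adjusted p = 0.056, limma). It missed the threshold, and passed it without wildtype replicate 2 (adjusted p = 0.0298, limma), without labelled Zmiz1-KO replicate 2 (0.0143) and with a filter of 10 in every library (0.048), in a range of 0.0143 to 0.353 over the alternatives. Mdga1, which binds neuroligin at inhibitory synapses, was at 4770 ± 212 and 4282 ± 409 (log2 fold change -0.16, adjusted p = 0.378, limma). Plcl2 was at 2028 ± 58.8 and 2189 ± 126 (0.11, adjusted p = 0.471, limma).

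The other receptors for inhibitory transmitters gave no calls either. Of 6 genes of the GABA-B receptor, which acts through G proteins, none was called, and the nearest were Kctd12b (log2 fold change 0.19, adjusted p = 0.579), Gabbr2 (0.05, adjusted p = 0.661) and Gabbr1 (0.04, adjusted p = 0.748, all limma). The groups did not overlap for Gabbr2, at 8600 ± 155 and 8905 ± 64.0 (SD, n = 3 per group). Of 5 glycine receptor genes, 3 were tested, Glra2 (0.10, adjusted p = 0.509), Glra3 (-0.44, adjusted p = 0.607) and Glrb (0.01, adjusted p = 0.966, all limma). Glra2, the alpha subunit of the immature glycine receptor, was the one whose groups did not overlap, at 1699 ± 64.3 and 1817 ± 20.0.

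The supply of the transmitter was listed with 8 genes, from synthesis to breakdown. None was called. An unadjusted p under 0.05 was seen for 6 of 8, against 11.0% of all tested genes, and for 5 the groups did not overlap, 4 higher and 1 lower, against 16.3%. The fold change was positive for 6 of 8, and the median log2 fold change was 0.25. Abat, the enzyme that degrades GABA, was at 6815 ± 417 in wildtype and 7857 ± 542 in the Zmiz1-KO-labelled libraries (log2 fold change 0.20, adjusted p = 0.168, limma), and Slc6a13, a GABA transporter of the meninges and vessels, was at 632 ± 103 and 827 ± 42.0 (0.40, adjusted p = 0.181, limma). Neither passed the threshold.

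In whole tissue, more cells of a type and more RNA per cell cannot be told apart. Markers of other cells were therefore read beside the subunit genes. All 11 interneuron markers had a positive fold change, with a median of 0.30 on the log2 scale. None was called, 7 had an unadjusted p under 0.05, against 11.0% of all tested genes, and 4 did not overlap between the groups, against 16.3%. They summed to 15837, 20617 and 17924 in wildtype and to 20981, 23199 and 21417 in the Zmiz1-KO-labelled libraries, with Gad1, the main enzyme of GABA synthesis, as the most abundant. Gad1, Gad2 and Slc32a1 are also in the list of transmitter supply, and Calb2 is also in the thalamic list below, so these lists are not separate observations. Gad1, Gad2, Slc32a1 and the Dlx genes are also made by GABA neurons of the striatum. The positive fold changes here and in the striatal list below are therefore not separate observations either. The 3 interneuron markers with the smallest p were Dlx6 (log2 fold change 0.54, adjusted p = 0.123), Lhx6 (0.27, 0.123) and Dlx5 (0.32, 0.288, all limma).

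All 10 markers of striatal projection neurons, the neighbours below the cortex, also had a positive fold change, with a median of 0.38. They summed to 12651, 16002 and 16383 in wildtype and to 19169, 20286 and 17968 in the other group. Of these Pde10a, a phosphodiesterase and the most abundant of them, was called (4942 ± 214 against 6381 ± 448, SD, n = 3 per group, log2 fold change 0.37, adjusted p = 0.00303, limma), and for 6 of 10 the groups did not overlap, against 16.3% of all tested genes. Striatal neurons carry Gabra4 and Gabrd, and many interneurons carry Gabrd. Gabra4 had a fold change of -0.05 and Gabrd of 0.20. The part of these cells in the values of the subunit genes was not tested.

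The 6 markers of cortical excitatory neurons summed to 59944 in wildtype and 60079 in the Zmiz1-KO-labelled libraries, with Camk2a as the most abundant and a median log2 fold change of -0.06. None was called, with Neurod2 at -0.17 (adjusted p = 0.241) and Neurod6 at -0.13 (adjusted p = 0.569, both limma). Of 8 thalamic markers none was called, the median was 0.05, and the 3 with the smallest p were Prkcd (-0.13), Slc17a6 (-0.08) and Calb2 (0.20). Their summed means were 5163 and 5200, with Slc17a6 as the most abundant. Of 8 hippocampal markers Neurod1 was lower in the Zmiz1-KO-labelled libraries (706 ± 34.1 against 527 ± 31.2, SD, n = 3 per group, log2 fold change -0.42, adjusted p = 0.0229, limma), and the median of the list was -0.04, with 4 markers positive and 4 negative. Fibcd1 (log2 fold change 0.26, adjusted p = 0.137) and Wfs1 (0.12, adjusted p = 0.346, both limma) were not called and stood higher without overlap between the groups, and Lct (-0.37, not called) and Neurod1 stood lower without overlap, so 4 of 8 did not overlap, against 16.3% of all tested genes. Without wildtype replicate 1 or labelled Zmiz1-KO replicate 1 the adjusted p of Neurod1 was 0.111, without wildtype replicate 3 it was 0.05004 and without labelled Zmiz1-KO replicate 3 it was 0.0818.

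Among glial and vascular lists, Aqp4, the water channel of astrocyte endfeet, was called and lower (5375 ± 233 against 4382 ± 138, SD, n = 3 per group, log2 fold change -0.29, adjusted p = 0.00499, limma). The 6 astrocyte markers had a median of -0.07, with 2 positive, Gja1 (0.08) and Gfap (0.05), and 4 negative. S100b (-0.27) and Slc1a3 (-0.10) were not called and stood lower without overlap. An unadjusted p under 0.05 (limma) was seen for 3 of 6, against 11.0% of all tested genes. Without overlap, 1 of 6 stood higher and 3 lower, where 16.3% of all tested genes did not overlap. The adjusted p of Aqp4 was 0.0511 without labelled Zmiz1-KO replicate 1 and 0.0818 without replicate 3 of that group. The medians were -0.07 for the oligodendrocyte lineage, -0.11 for microglia and -0.07 for vessels, with no call. Of 6 markers in each of these lists, 1, 2 and 2 had a positive fold change, and 5, 4 and 4 a negative one. Among the smallest p in these lists were those of Pdgfra (-0.13) and Mbp (-0.18), of P2ry12 (-0.33), Cx3cr1 (-0.14) and Tmem119 (-0.14), and of Cldn5 (0.11), Pdgfrb (0.09) and Pecam1 (-0.12), each value a log2 fold change. Choroid plexus markers, led by Ttr, summed to 247, 8302 and 6300 in wildtype and to 3151, 324 and 4787 in the Zmiz1-KO-labelled libraries, so libraries differed in this tissue within each group. None of its 5 markers was called, and the smallest p belonged to Kl (-0.40), Folr1 (-0.82) and Otx2 (0.40). Every marker list had all of its genes above 0 in at least 1 library. The part of these tissues in the subunit values was not tested.

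**Figure D5:**
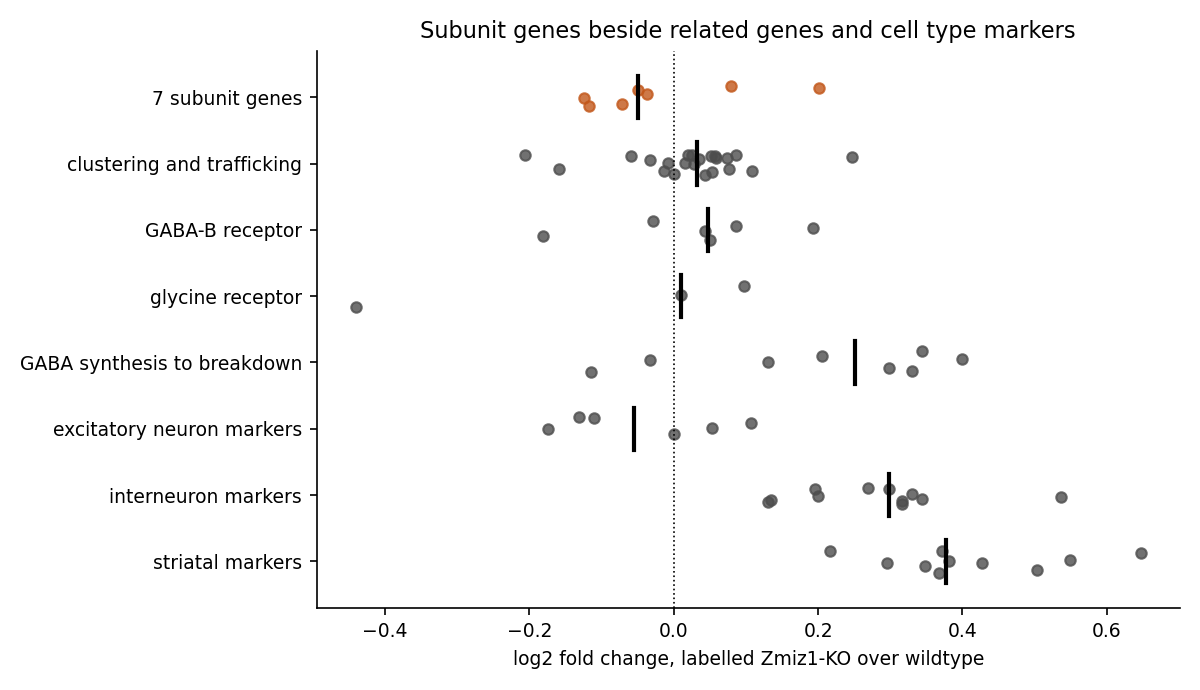
Log2 fold change of the Zmiz1-KO-labelled libraries over wildtype for the 7 subunit genes (orange) and for tested genes of related lists and of cell type markers (grey), with a bar at each median. The subunit genes lie on both sides of 0 with a median of -0.05, and all listed interneuron and striatal markers lie above 0, with medians of 0.30 and 0.38.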

How the data were processed

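RNA of P7 cortex was sequenced in 6 libraries, 3 per genotype. Per the labels and the study's methods, the authors aligned reads to mm10 with STAR, counted reads per gene and scaled the counts with DESeq2 in BaseSpace, and deposited 1 table of these normalized counts, a signal that is no longer whole reads. Versions, annotation and counting options are not given in the sources used here. Whole reads could not be recovered, so values were analysed as log2(value + 1) in limma 3.58.1 (R 4.3.3) with an intensity trend and robust variance, over the 15800 genes at 10 or more in at least 3 libraries. Tests were two-sided, with Benjamini-Hochberg adjustment over all of them and calls at an adjusted value of 0.05 or less. The procedure was tested on simulated data. Single ratios and genes had exact permutation tests. Gene models were from GENCODE M21, and plots came from matplotlib 3.10.9 in Python 3.11.15.

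Of 24972 genes, 5323 were listed at 0 in every library. The genes named were Zmiz1, the 7 members, the 3 genes most like each member, from each other list the called genes or else the 3 with the smallest p, and Xist and Ddx3y. Gad1, Gm9962, Slc17a7, Slc17a6, Camk2a and Ttr were named as markers or neighbours. The members and lists were chosen with earlier results of these data known. Some genes are counted but not reported here by name. Alternatives were limma-voom, other scalings, filters, pseudocounts and thresholds, ordinary variance estimation, Xist as a covariate, a replicate block, another gene length and leaving out each library.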

Additional observations from a re-analysis of the deposited data

How the results depend on the processing

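No subunit gene was called in any of the 17 alternatives. Of 119 fold changes of the members in these alternatives, 118 kept their sign, and the exception was Gabra4, at -0.077 to 0.0022 when 1 library was left out, the latter without wildtype replicate 1 (adjusted p = 0.996, limma). The looser threshold, the filters, ordinary variance estimation and the replicate block leave a fold change as it is, so they do not test its sign. Median-ratio scaling of values already scaled, and other pseudocounts, hardly test it either. With that scaling Gabrb1 stayed at -0.1169, and it was at -0.1174 and -0.1128 with pseudocounts of 0.1 and 10. The number of all tested genes called, 65, was 106 at an adjusted p of 0.1, 17 without robust variance estimation and 12 to 152 when 1 library was left out (12 without labelled Zmiz1-KO replicate 3, 17 without replicate 1 and 152 without replicate 2 of that group, and 30 without wildtype replicate 1). With the replicate number as a block it was 168, which changed no call on a member, and Trak2 then passed (adjusted p = 0.0314, limma). The correlations of the deviations of libraries with the same number were -0.01, -0.11 and -0.01 for replicates 1, 2 and 3, so the libraries share only a number, and not every library correlated best with its own number. The number of members whose groups did not overlap was 1 and became 1 to 3 when 1 library was left out. It was 2 without wildtype replicate 1, 2 or labelled Zmiz1-KO replicate 3, and 3 without wildtype replicate 3 or labelled Zmiz1-KO replicate 2, and Gabra5 was among them each time. The share of all tested genes without overlap rose too, from 16.3% to between 24.0% and 31.5%. The number of members with an unadjusted p under 0.05, 2, was 0 with Xist as a covariate, without wildtype replicate 2 and without labelled Zmiz1-KO replicate 1, 1 without labelled Zmiz1-KO replicate 3 and without robust variance estimation, and 3 with the replicate block. The call of Neurod1 was lost without robust variance estimation (adjusted p = 0.0755, limma). With the longest transcript as length the levels per kilobase were 464.9 for Gabra2, 1107 for Gabra3, 397.8 for Gabra4, 1861 for Gabra5 and 1459 for Gabrb2. Over the alternatives the log2 fold change was 0.29 to 0.35 for Zmiz1, with adjusted p of 9.17e-05 to 0.0207, 0.07 to 0.09 for Gabra5, -0.13 to -0.03 for Gabra2, -0.06 to -0.03 for Gabra3, -0.26 to -0.03 for Gabrb1, -0.17 to -0.07 for Gabrb2 and 0.12 to 0.28 for Gabrd (limma). The extremes were reached without wildtype replicate 1 and 2 for Gabra2, and without labelled Zmiz1-KO replicate 2 and 3 for Gabrb1. Gabrb2 was at -0.07 without wildtype replicate 1 and -0.08 without labelled Zmiz1-KO replicate 3, and Gabrd at 0.12 without wildtype replicate 2 or labelled Zmiz1-KO replicate 1.

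With 3 libraries per group, small changes of the members were beyond the precision of these data. That held most for Gabrb1 and Gabrd, which had the fewest reads. The other members lay at log2 fold changes of -0.13 to 0.08, and none of these was called. Among genes of like level to them, the smallest absolute log2 fold change called was 0.196. That value rests on the variances of the called genes and is not a detection limit for the members.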
